A study of Caenorhabditis elegans with 2 samples.

Results

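The heterochronic genes of Caenorhabditis elegans set the order and timing of cell fates through the larval stages. Peaks of the nuclear protein ALY-2 were read at 8 of them: lin-29, lin-14, lin-28, lin-41, lin-42, hbl-1, lin-46 and daf-12. They were taken by name from the 19973 protein-coding genes of the Ensembl annotation, and all 8 were found. A peak was assigned to a gene when it overlapped, by at least 1 bp, the gene body, the 1000 bp upstream or the 500 bp downstream, a span called the gene window here. The genes were chosen by their known roles with the peak signals of these same lists already in view, so their counts and signals are given as descriptions, with no test.

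ALY-2 is related to Aly/REF, an adaptor protein that joins nascent transcripts and helps to carry finished mRNA out of the nucleus. ChIP-seq, which sequences the DNA recovered with a protein, was done on entire L4 larvae of strain OP217, of genotype unc-119(ed3) III; ddIs172, a stable line in which ALY-2 carries GFP-FLAG at its C-terminus. The single group held 2 biological replicates, both pools of mixed sex, and had no treatment arm. Whole animals were used, so a peak cannot be placed in the skin, the neurons or the germ line, and the labels give neither the promoter of the transgene nor whether the replicates were separate cultures. Any difference between replicates may therefore be technical in part.

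Each gene was read in 4 peak lists on the ce11 build. The reproducible list held the 193 peaks past the authors' threshold on the irreproducible discovery rate (IDR), and the combined list held 3341 peaks from both replicates together. The replicate 1 list held 17453 peaks and the replicate 2 list 29384. The last 3 lists are permissive and take in background by design, covering 1.23%, 6.68% and 11.1% of the genome, against 0.0712% for the reproducible list. Signal is the authors' value for a peak on a scale that is not stated, so it was ranked only within a list (rank 1 is the highest). Its median was 37.5, 19.5, 8.88 and 4.95 in the 4 lists in the order given. Read depth was unknown.

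In the heterochronic pathway, early genes such as lin-14, lin-28 and hbl-1 hold back later fates until small RNAs of the lin-4 and let-7 families silence them. Release of lin-29 from repression by lin-41 then lets the skin stop dividing and make the adult cuticle at the end of the fourth larval stage. The nuclear receptor DAF-12, the period homolog LIN-42 and the scaffold-like protein LIN-46 adjust when those steps occur.

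One of the 8 genes, lin-29, had a peak in the reproducible list. In the combined list lin-29, lin-14 and lin-42 had peaks, and lin-28, lin-41, hbl-1, lin-46 and daf-12 had none. In replicate 1 every gene but lin-28 had a peak, and in replicate 2 all 8 did. The counts of genes with a peak were thus 1, 3, 7 and 8 of 8, against 1.27%, 16.1%, 55.6% and 69.0% of all protein-coding genes in the same lists. The peaks numbered 1, 10, 32 and 63. Some overlap their neighbours in the same list, and after joining these the combined list had 8 sites at the 8 genes, replicate 1 had 29 and replicate 2 had 57.

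Several of these genes are long, and long genes met more peaks. The windows of the 8 genes ran from 3376 bp at lin-46 to 32468 bp at daf-12, against a median of 3527 bp over all protein-coding genes. Of lin-14, lin-42 and daf-12, whose windows exceed 20 kb, 2 had a combined peak, against 60.7% of the 242 genes of that length, and all 3 had peaks in each replicate, against 99.6% in replicate 1 and 100% in replicate 2. The lin-29 window falls between 10 and 20 kb, where 37.2% of genes had a combined peak and 2.37% a reproducible one. Among the shorter genes, lin-41 and hbl-1 (5 to 10 kb) and lin-28 and lin-46 (up to 5 kb) had no combined peak, as had most genes of those lengths, 22.5% and 12.1% of which had one. The presence of a replicate peak at most of the 8 genes was therefore near what their length classes held.

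Per length, the heterochronic windows held 0.844 combined peaks per 10 kb, against 0.461 over the windows of all protein-coding genes. The density was 2.70 against 2.08 in replicate 1 and 5.32 against 3.64 in replicate 2. In the combined list lin-14 alone accounted for 5 of the 10 peaks, at 2.29 per 10 kb, with lin-42 at 1.45 and lin-29 at 1.04. In replicate 2 lin-14, lin-42 and hbl-1 were close together, at 7.34, 7.27 and 7.03 per 10 kb, and lin-29 was the sparsest at 2.60. All genes with windows over 20 kb had means of 1.4, 6.05 and 10.8 peaks in the combined, replicate 1 and replicate 2 lists. There lin-14 had 5, 9 and 16, lin-42 had 3, 7 and 15 and daf-12 had 0, 9 and 15. In the 10 to 20 kb class the means were 0.626, 2.75 and 4.84, and lin-29 had 2, 2 and 5.

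**Figure D1:**
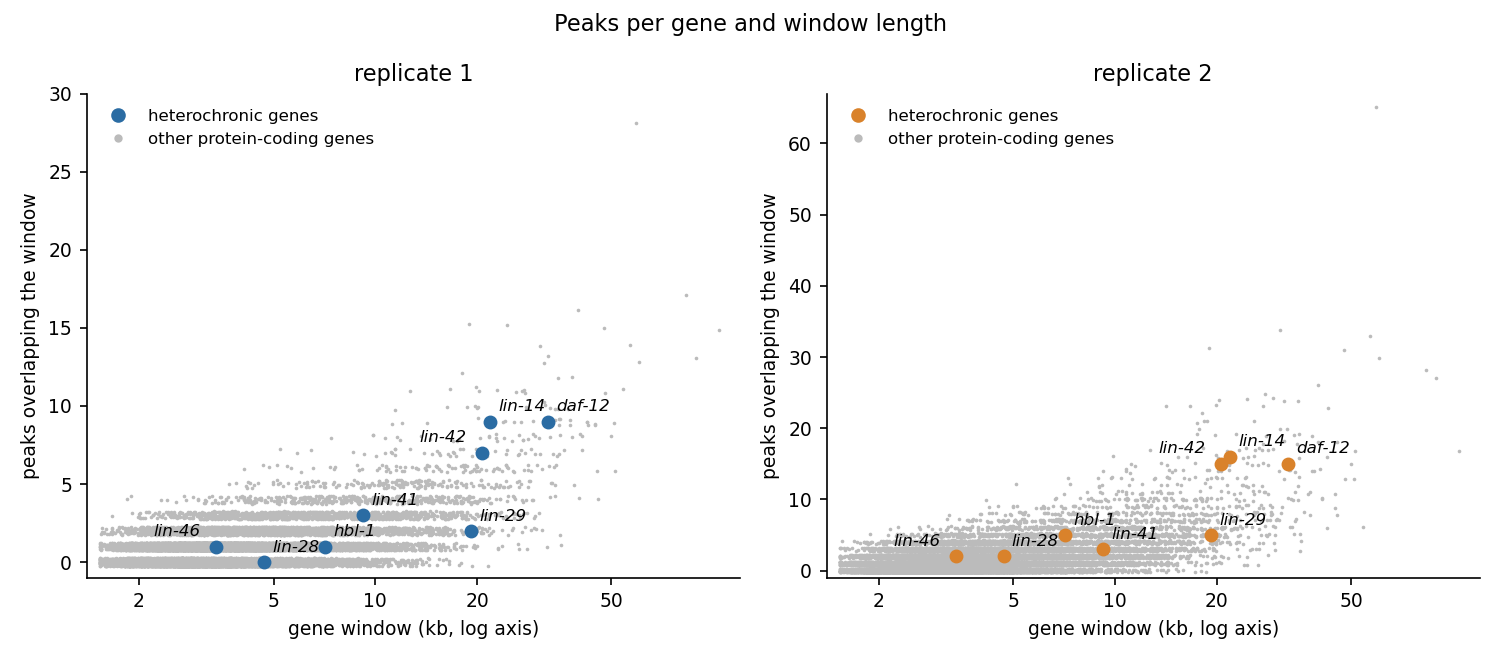
Number of peaks overlapping each protein-coding gene window (vertical axis, a different range in each panel) against window length in kb (log axis), for replicate 1 and replicate 2. Coloured points are the 8 heterochronic genes and grey points the other genes, moved slightly up or down so that they can be seen. The genes lin-14, lin-42 and daf-12 have 9, 7 and 9 peaks in replicate 1 and 16, 15 and 15 in replicate 2. The means of all genes with windows over 20 kb are 6.05 and 10.8.

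The order of the genes by their strongest peak was partly shared by the lists. In replicate 1 the strongest peaks of lin-29, lin-14, lin-42 and daf-12 stood above 99.4%, 98.2%, 97.8% and 97.1% of the list, and that of hbl-1 above 89.9%. In replicate 2 those of lin-29, lin-14, daf-12, hbl-1 and lin-42 stood above 99.7%, 99%, 96.1%, 93.6% and 91.2%. The strongest peaks of lin-41 and lin-46 were lower, above 54.4% and 48.2% in replicate 1 and 75.9% and 60.1% in replicate 2. At lin-28 the only peaks were in replicate 2, the stronger one above 49.6% of the list. A high place in a replicate list did not always come with a low q-value. The authors' −log10 of the q-value reached only 0.76 over the 32 replicate 1 peaks of these genes, at lin-29, and the next highest was 0.35. Over the 63 replicate 2 peaks it ran from 0.02 to 3.1.

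The strongest peaks were also ranked among the strongest peaks of all protein-coding genes with a peak in the list. A gene with many peaks has more chances of a high one. The ranking was not matched on window length or number of peaks, so that advantage of long genes remains in it. Of the 11098 genes with a replicate 1 peak, 6956 had windows up to 5 kb. On that scale lin-29 was at or above 98.8% of 11098 genes in replicate 1 and 99.2% of 13791 genes in replicate 2, and lin-14 at or above 96.7% and 97.3%. For lin-42 the values were 95.8% in replicate 1 and 81.7% in replicate 2, for daf-12 94.7% and 90.9%, and for hbl-1 83.2% and 86.2%. The lower genes fell further, with lin-41 at 40.9% and 58.9%, lin-46 at 34.9% and 41.6%, and lin-28 at 31.8% in replicate 2. In the combined list lin-29 was at or above 95.7% of 3215 genes, lin-42 78.3% and lin-14 71.1%. Neighbours in these orders have 1 value per list, and no spread is available to tell them apart.

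**Figure D2:**
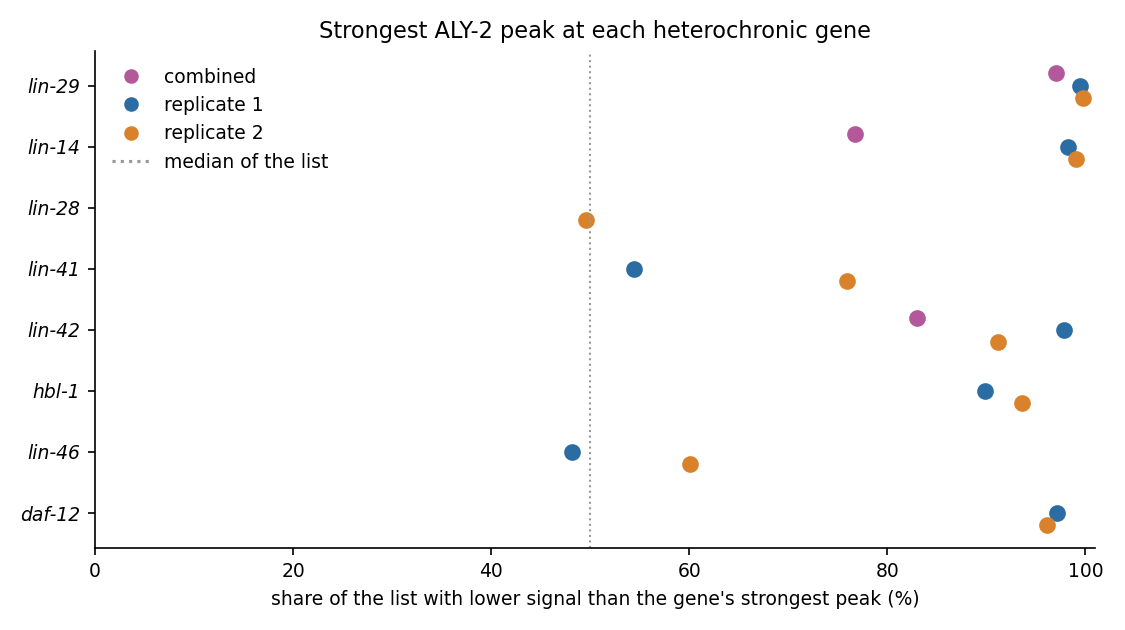
Share of each list with a lower signal than the strongest peak of each heterochronic gene (horizontal axis, percent), for the combined, replicate 1 and replicate 2 lists; a missing point means no peak, and the dotted line marks the median of a list. The lin-29 points lie at 97.0, 99.4 and 99.7%, while those of lin-28, lin-41 and lin-46 lie between 48.2 and 75.9%.

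Gene by gene, the peaks fell as follows, beginning with the last step of the pathway. The gene lin-29 encodes the zinc-finger transcription factor that drives the larval-to-adult switch of the skin. It is WBGene00003015, on the minus strand of chromosome II at 11917642 to 11935343. Its reproducible peak, at chrII:11917485-11917854, had signal 37.45 and ranked 99 of 193, and it is the same peak that ranked 99 of 3341 in the combined list. The last peak inside the reproducible list and the first outside it both had a signal of 32.6. The summit lay in the 3' UTR, 28 bp before the annotated end of lin-29. Its bases were as follows, read along the lin-29 strand of ce11, with the 10 central bases around the summit in capitals.
lin-29 3' end summit, chrII:11917655-11917684, minus strand: cgttatctccCCCGATTGATtgaaaatata

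This position is shared. The gene hmg-12, of the high mobility group family, lies on the opposite strand at 11916513 to 11917643 and converges on lin-29, and the same summit was 27 bp past its end. The peak overlaps both genes, and immunoprecipitated chromatin carries no strand, so it cannot be assigned to one of them. The authors' −log10 of the q-value was 2.48 at this peak. At the other 9 combined peaks of the heterochronic genes it ran from 0.03 to 0.65, and none of those 9 was in the reproducible list.

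Both replicates had their strongest lin-29 peak at this end of the gene. Replicate 1 had a peak at chrII:11917474-11917857 with signal 19.6, rank 102 of 17453, and replicate 2 had one at chrII:11917651-11918030 with signal 25.6, rank 82 of 29384. The replicate 1 summit lay within 4 bp of the combined summit. The replicate 2 summit lay 171 bp farther into lin-29, 199 bp before its end, and that peak did not reach hmg-12. The 2 replicate peaks overlapped by 207 bp and their summits were 175 bp apart. A second combined peak, at chrII:11917697-11918066 with signal 21.1 and rank 1178, had its summit 41 bp from that of replicate 2.

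Elsewhere in lin-29 peaks were few. Replicate 1 had 1 more, in an intron, with signal 9.12 (rank 7957). Replicate 2 had 4 more, 3 in introns and 1 in a coding exon, with signals from 3.40 to 9.51. None of these overlapped a peak of the other replicate, and no list had a peak in the 1000 bp upstream of lin-29.

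Of the 7 heterochronic genes with peaks in both replicates, lin-29 was the 1 whose strongest peaks in the replicates overlapped. Over all protein-coding genes with peaks in both, 28.4% had overlapping strongest peaks (2521 of 8864), and 16.3% did among those with windows of 10 to 20 kb. This comparison was added after the peaks had been seen. At the other 6 genes the summits of the strongest peaks were apart by 434 bp (lin-46), 606 bp (daf-12), 1495 bp (lin-14), 4584 bp (hbl-1), 7177 bp (lin-41) and 9543 bp (lin-42).

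The genes whose strongest peaks stood at heights most like those of lin-29 were found by summing the differences in percent of the list over the combined and both replicate lists. Among 2931 protein-coding genes with peaks in all 3, hmg-12 came first with a difference of 0, since it has the same peaks. F43C9.2 followed with a summed difference of 0.443 and emb-8, a gene of an NADPH-cytochrome P450 reductase, with 0.857.

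**Figure D3:**
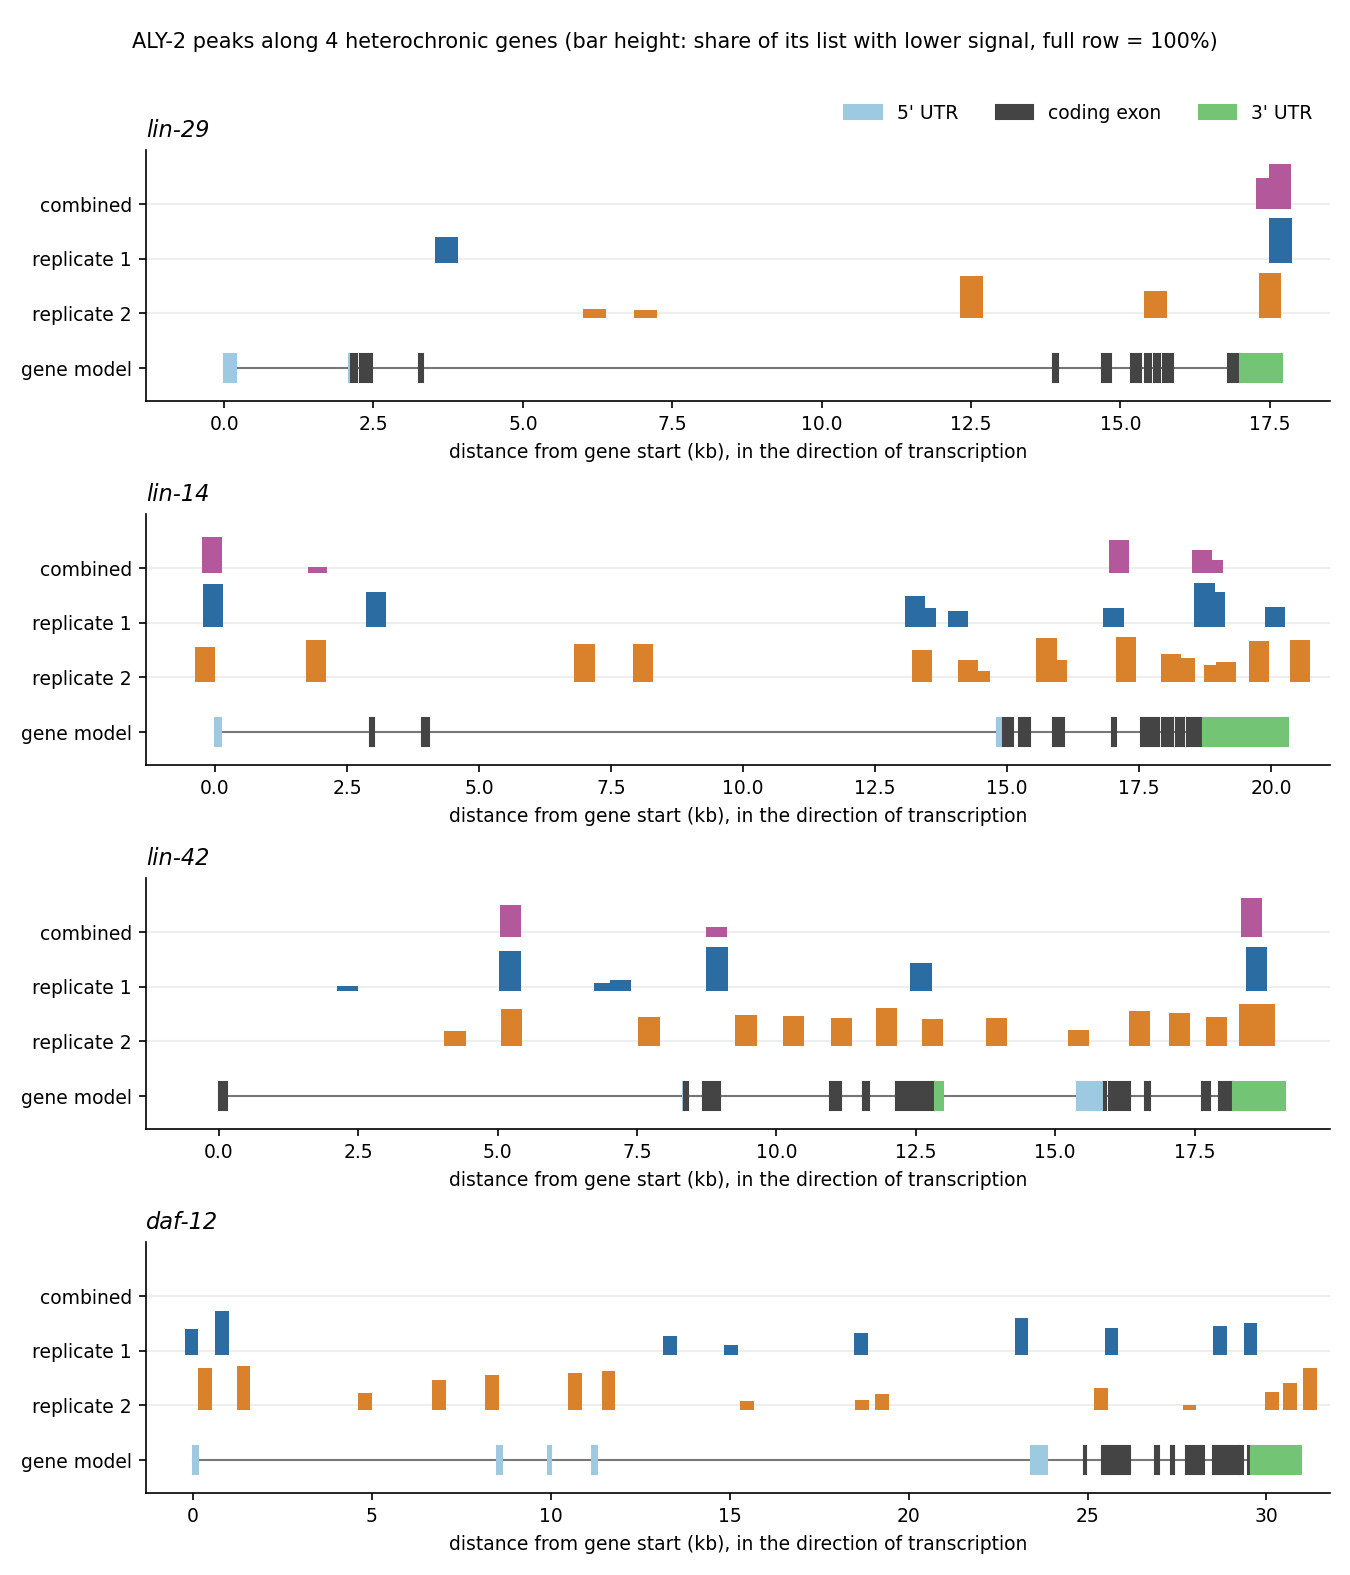
Peaks of the combined, replicate 1 and replicate 2 lists along lin-29, lin-14, lin-42 and daf-12, by distance from the gene start in kb along the direction of transcription; bars span each peak, bar height is the share of that list with a lower signal, and the bottom row shows the exons. The tall bars of all 3 lists coincide at the 3' end of lin-29, and the combined row of daf-12 is empty.

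The gene lin-14 encodes a nuclear protein that specifies the fates of the first larval stage and is silenced by the lin-4 microRNA. It is WBGene00003003, on the plus strand of chromosome X at 11465560 to 11485871. With 5 peaks it had the most combined peaks of the 8 genes, and 2 of these overlap, which leaves 4 sites. None was in the reproducible list. The strongest lay at the start of the gene, at chrX:11465322-11465691, with signal 23.2 and rank 778. Its summit was 53 bp upstream of the annotated start and 176 bp past the end of the noncoding RNA gene T25C12.9 on the same strand. Replicate 1 had an overlapping peak with signal 14.3 (rank 821) and replicate 2 one with signal 6.73 (rank 7386).

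Further along, a weak combined peak lay in the long first part of the gene, at chrX:11467312-11467681, with signal 16.7 and rank 3223. It overlaps T25C12.7, a noncoding RNA gene on the opposite strand. Replicate 2 had a peak there (signal 9.85, rank 2443) and replicate 1 had none. An intron near the 3' end held a combined peak at chrX:11482496-11482865 with signal 21.6 and rank 1045. Here the replicates differed in height. The replicate 2 peak had signal 18.8 and rank 290, the strongest of that list at lin-14, while the replicate 1 peak had signal 8.27 and rank 11169, above 36.0% of its list. Both intron summits and the summit at the gene start are printed because they are the lin-14 sites outside the 3' end, with the 10 bases around each summit in capitals.
lin-14 start summit, chrX:11465492-11465521, plus strand: tgtttggcaaATAGCAATATatctctgcag
lin-14 first intron summit, chrX:11467437-11467556, plus strand: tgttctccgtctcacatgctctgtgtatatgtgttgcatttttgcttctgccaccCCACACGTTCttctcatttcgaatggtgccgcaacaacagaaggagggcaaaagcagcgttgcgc
lin-14 later intron summit, chrX:11482621-11482740, plus strand: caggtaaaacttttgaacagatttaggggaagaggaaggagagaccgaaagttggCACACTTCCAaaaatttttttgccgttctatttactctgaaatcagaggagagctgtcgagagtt

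The other lin-14 site spans the last coding exon and the first part of the 3' UTR. It held 2 overlapping combined peaks, at chrX:11484070-11484439 (signal 19.1, rank 1824, summit in the coding exon) and chrX:11484272-11484641 (signal 17.4, rank 2694, summit in the 3' UTR). The second summit lay 36 bp upstream of T25C12.11, a small nucleolar RNA gene annotated within the lin-14 3' UTR on the same strand. Replicate 1 had its strongest lin-14 peak at this site, at chrX:11484110-11484493, with signal 16.7 and rank 308. Replicate 2 was much lower there. Its 3 peaks that overlap either of them had signals of 4.10 to 4.87, the highest above 48.1% of that list.

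The gene lin-42 encodes a homolog of the circadian protein Period and represses the transcription of heterochronic microRNA genes. It is WBGene00018572, on the minus strand of chromosome II at 1233236 to 1252359. It had 3 combined peaks and none in the reproducible list. The strongest lay in the 3' UTR at chrII:1233657-1234026, 606 bp before the end of the gene, with signal 25.1 and rank 567. Both replicates had peaks there, with signal 14.6 (rank 720) in replicate 1 and, as the higher of a pair, 9.67 (rank 2590) in replicate 2, which was the strongest replicate 2 peak of the gene.

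An internal coding exon of lin-42 held a combined peak at chrII:1243249-1243618 with signal 17.1 and rank 2882. It was seen in replicate 1, with signal 16.1 and rank 391, and replicate 2 had no peak overlapping it. The last combined peak lay in an intron at chrII:1246943-1247312, with signal 21.3 and rank 1122. Both replicates had a peak there, with signal 12.1 (rank 2157) in replicate 1 and 7.32 (rank 5986) in replicate 2, with summits 6 and 16 bp from the combined summit. That peak overlaps the noncoding RNA genes F47F6.13, on the opposite strand, and F47F6.15, on the same strand. Sequences at the 3 summits are shown with the 10 central bases in capitals, since the intron summit differs from the rest in base composition: G and C made up 68.3% of its 120 bases, against 40.4% of the whole lin-42 window.
lin-42 3' UTR summit, chrII:1233827-1233856, minus strand: atggcttgtgGGTATTTATCtgaaagctct
lin-42 coding exon summit, chrII:1243374-1243493, minus strand: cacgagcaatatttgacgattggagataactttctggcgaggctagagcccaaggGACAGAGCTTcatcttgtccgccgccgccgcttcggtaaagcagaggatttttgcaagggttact
lin-42 intron summit, chrII:1247068-1247187, minus strand: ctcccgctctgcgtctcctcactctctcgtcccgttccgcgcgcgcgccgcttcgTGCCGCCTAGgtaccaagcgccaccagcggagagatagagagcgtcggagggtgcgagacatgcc

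The gene daf-12 encodes a nuclear hormone receptor that couples larval timing to the choice between growth and the dauer stage. It is WBGene00000908, on the plus strand of chromosome X at 10635908 to 10666875, and is the longest of the 8. It had 9 peaks in replicate 1 and 15 in replicate 2, and none in the combined list. The strongest in each replicate lay in the first intron but at different places. In replicate 1 the summit was 809 bp past the gene start, with signal 15.4 and rank 508. In replicate 2 it was 1415 bp past it, with signal 12.4 and rank 1151. Only 2 of the 9 replicate 1 peaks overlapped a replicate 2 peak. A replicate 2 peak with signal 9.83 (rank 2460), 242 bp past the gene end, overlaps the noncoding RNA gene F11A1.11 and a tRNA gene.

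The gene hbl-1 encodes a zinc-finger protein like Drosophila Hunchback that specifies second-stage fates and is a let-7 family target. It is WBGene00001824, on the plus strand of chromosome X at 5822142 to 5827755. Its 1 replicate 1 peak lay in the 3' UTR, with signal 12.6 and rank 1757. Replicate 2 had 5 peaks, the strongest in the 5' UTR 131 bp past the start, with signal 10.7 and rank 1869, and 2 in the 3' UTR with signals of 4.39 and 6.31. The weaker of that pair overlapped the replicate 1 peak.

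The remaining 3 genes had the lowest peaks. The gene lin-41 encodes a TRIM-NHL RNA-binding protein that represses lin-29 and is silenced by let-7. It is WBGene00003026, on the minus strand of chromosome I at 9334800 to 9342496. It had 3 peaks in each replicate, the strongest with signal 9.12 (rank 7952) in an intron in replicate 1 and 6.84 (rank 7082) 15 bp past the gene end in replicate 2. The gene lin-46 encodes a protein related to gephyrin that restrains HBL-1 and is itself held down by LIN-28. It is WBGene00003031, on the plus strand of chromosome V at 12968855 to 12970730. Replicate 1 had 1 peak in its coding sequence (signal 8.79, rank 9040) and replicate 2 had 2 past its end, the stronger with signal 5.52 (rank 11719). The weaker one, 415 bp past the end, also overlaps pnn-1.

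The gene lin-28 encodes an RNA-binding protein that blocks the maturation of let-7. It is WBGene00003014, on the minus strand of chromosome I at 8407630 to 8410804, and replicate 1 had no peak in its window. Replicate 2 had 2. The stronger, with signal 4.94 (rank 14806), reached into the window by its edge only, and its summit lay within the neighbouring gene F02E9.1. The other, 375 bp upstream of the lin-28 start, had signal 3.75 (rank 23547). Peaks at lin-28 were thus at or below the middle of the 1 list that had them.

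The window edges left out 3 combined peaks within 2000 bp upstream or 1000 bp downstream of these genes. One, with signal 18.7 (rank 1976), had its summit 1160 bp past the end of lin-29. It lies at chrII:11916297-11916666 and overlaps the start of hmg-12, at 11916513. Another, with signal 20.4 (rank 1376), had its summit 1464 bp upstream of lin-41, and the last, with signal 25 (rank 572), had its summit 716 bp past the end of daf-12. Just inside the edges were the replicate 2 peaks 415 bp past the end of lin-46 and 718 bp upstream of hbl-1, with signals of 4.0 and 4.81.

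Replicate sharing varied from gene to gene. Of the 32 replicate 1 peaks at the heterochronic genes, 16 overlapped a replicate 2 peak by at least 1 bp, which is 50% (exact Clopper-Pearson 95% interval 31.9 to 68.1), against 38.0% of all replicate 1 peaks. Of the 63 replicate 2 peaks, 17 overlapped a replicate 1 peak, or 27.0% (16.6 to 39.7), against 24.7% of all. The intervals cover counting error over peaks only, and overlapping peaks are not independent. The share of all peaks lay inside the interval in both replicates. At lin-14, 8 of 9 replicate 1 peaks were shared, against 3 of 7 at lin-42 and 2 of 9 at daf-12. The gene lin-14 thus held 8 of the 16 shared replicate 1 peaks and 8 of the 17 shared replicate 2 peaks.

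Where the summits fell within the genes is described next. Of the 10 combined summits, 4 lay in a 3' UTR, which is 40% (exact 95% interval 12.2 to 73.8), against 9.32% of the summits in the windows of all protein-coding genes. The 3' UTRs make up 6.78% of the length of the heterochronic windows and 3.70% of all windows. In replicate 1 the share was 18.8% (6 of 32), against 4.99%, and in replicate 2 it was 17.7% (11 of 62), against 5.96%. The 4 combined summits came from 3 genes, lin-29, lin-14 and lin-42, and 2 of them belong to the overlapping pair at lin-29.

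Introns, which make up 67.5% of the heterochronic windows, held 30% of the combined summits, 56.2% of those of replicate 1 and 58.1% of those of replicate 2. Over all protein-coding genes, whose windows are 36.7% intron, the shares were 19.2%, 30.6% and 28.2%. Upstream sequence held 1 combined summit, that of lin-14, or 10% (0.253 to 44.5), against 24.7% over all genes. The upstream share was 6.25% against 21.0% in replicate 1 and 4.84% against 22.4% in replicate 2, while upstream sequence makes up 6.75% of the heterochronic windows and 21.2% of all windows. Coverage of the 3' UTRs by peaks, counted after the positions had been seen, was 14.6% of 8033 bp in the combined list, 25.4% in replicate 1 and 53.1% in replicate 2. Over all protein-coding genes it was 4.17%, 10.3% and 20.1%.

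**Figure D4:**
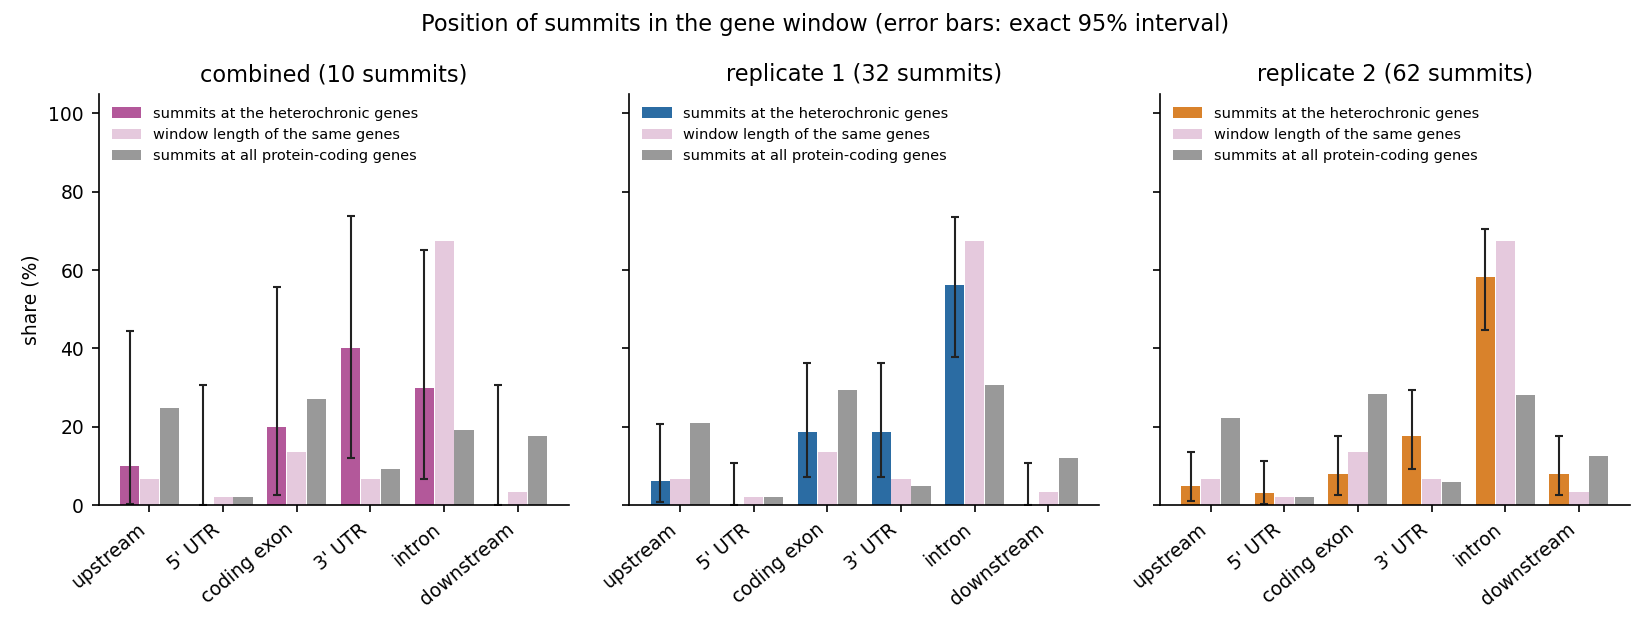
Share of summits (percent) by position in the gene window for the combined, replicate 1 and replicate 2 lists: summits at the 8 heterochronic genes, the length of their windows in each class, and summits at all protein-coding genes; error bars are exact 95% binomial intervals for the heterochronic genes. The 3' UTR share of the heterochronic genes is 40, 18.8 and 17.7%, beside the 6.78% of their length that is 3' UTR. Of the 4 combined 3' UTR summits 2 belong to the overlapping pair at lin-29. Overlapping peaks are not independent, so the intervals are descriptions and not a test.

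The GC content within 100 bp of the summit was 43.5% ± 8.60 (SD, n = 10 peaks) at the heterochronic genes in the combined list, against 39.9% over all combined peaks. It was 39.4% ± 7.83 (n = 32) against 37.2% in replicate 1 and 40.1% ± 7.23 (n = 63) against 38.0% in replicate 2. The windows themselves ran from 33.7% GC at lin-28 to 40.4% at lin-42.

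The timing microRNAs silence their targets through 3' UTRs, so seed matches in the 3' UTRs of the 8 genes were set beside the peaks. The mature sequences of lin-4 and let-7, taken from the RefSeq annotation of the same assembly (WBcel235, which is ce11), are printed with the seed, bases 2 to 8, in capitals. In the let-7 family, let-7, mir-48, mir-84 and mir-241 share 1 seed.
lin-4: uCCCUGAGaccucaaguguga
let-7: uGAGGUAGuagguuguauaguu
mir-48: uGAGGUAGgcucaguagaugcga
mir-84: uGAGGUAGuauguaauauuguaga
mir-241: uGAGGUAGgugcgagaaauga

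The match to the lin-4 seed, CTCAGGG, and that to the let-7 seed, CTACCTC, were searched on the mRNA strand of annotated 3' UTRs. The lin-4 match occurred 4 times, 3 in lin-14 and 1 in lin-28, and 0.220% of the 16794 protein-coding genes with a 3' UTR hold it. The let-7 match occurred 12 times, 4 in lin-14, 4 in hbl-1, 3 in daf-12 and 1 in lin-28, and 0.893% of those genes hold it. None was found in the annotated 3' UTRs of lin-29, lin-41, lin-42 and lin-46. A 7-base match is a description of the letters and not proof of a target site. Its absence, as at lin-41, does not show that a gene lacks such a site, since only unbroken matches were searched.

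No seed match lay under a combined peak. In replicate 1 peaks covered 3 of the 12 let-7 matches and 0 of the 4 lin-4 matches, and in replicate 2 they covered 7 and 2. These counts stand beside the 14.6%, 25.4% and 53.1% of the same 3' UTRs that combined, replicate 1 and replicate 2 peaks covered, and are read as no more than that coverage. Of all 16 matches, 11 were under a peak of either replicate and 1 was under peaks of both. That one is the first let-7 match of lin-14, 16 bp from a replicate 2 summit with signal 4.41 (rank 18208) and 189 bp from a replicate 1 summit with signal 10.6 (rank 4336). Across the lin-14 3' UTR, the combined peaks stood at its first part and the other lin-14 matches farther on, the nearest lin-4 match 645 bp from a combined summit. Matches near replicate summits at lin-14 and hbl-1 are printed with the match in capitals, together with a lin-14 site where a lin-4 and a let-7 match overlap, shown for its lin-4 letters.
lin-14 let-7 match under peaks of both replicates, match at chrX:11484690-11484696, plus strand: tgcaacaattCTACCTCaatttttttg
lin-14 lin-4 match that overlaps a let-7 match, match at chrX:11485147-11485153, plus strand: tttcttctacCTCAGGGaacctacctc
lin-14 lin-4 match nearest to a replicate 2 summit, match at chrX:11485378-11485384, plus strand: tcacaaccaaCTCAGGGacctttttct
hbl-1 let-7 match under a replicate 2 peak, match at chrX:5826627-5826633, plus strand: gtctcactttCTACCTCcaaacatatt

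**Figure D5:**
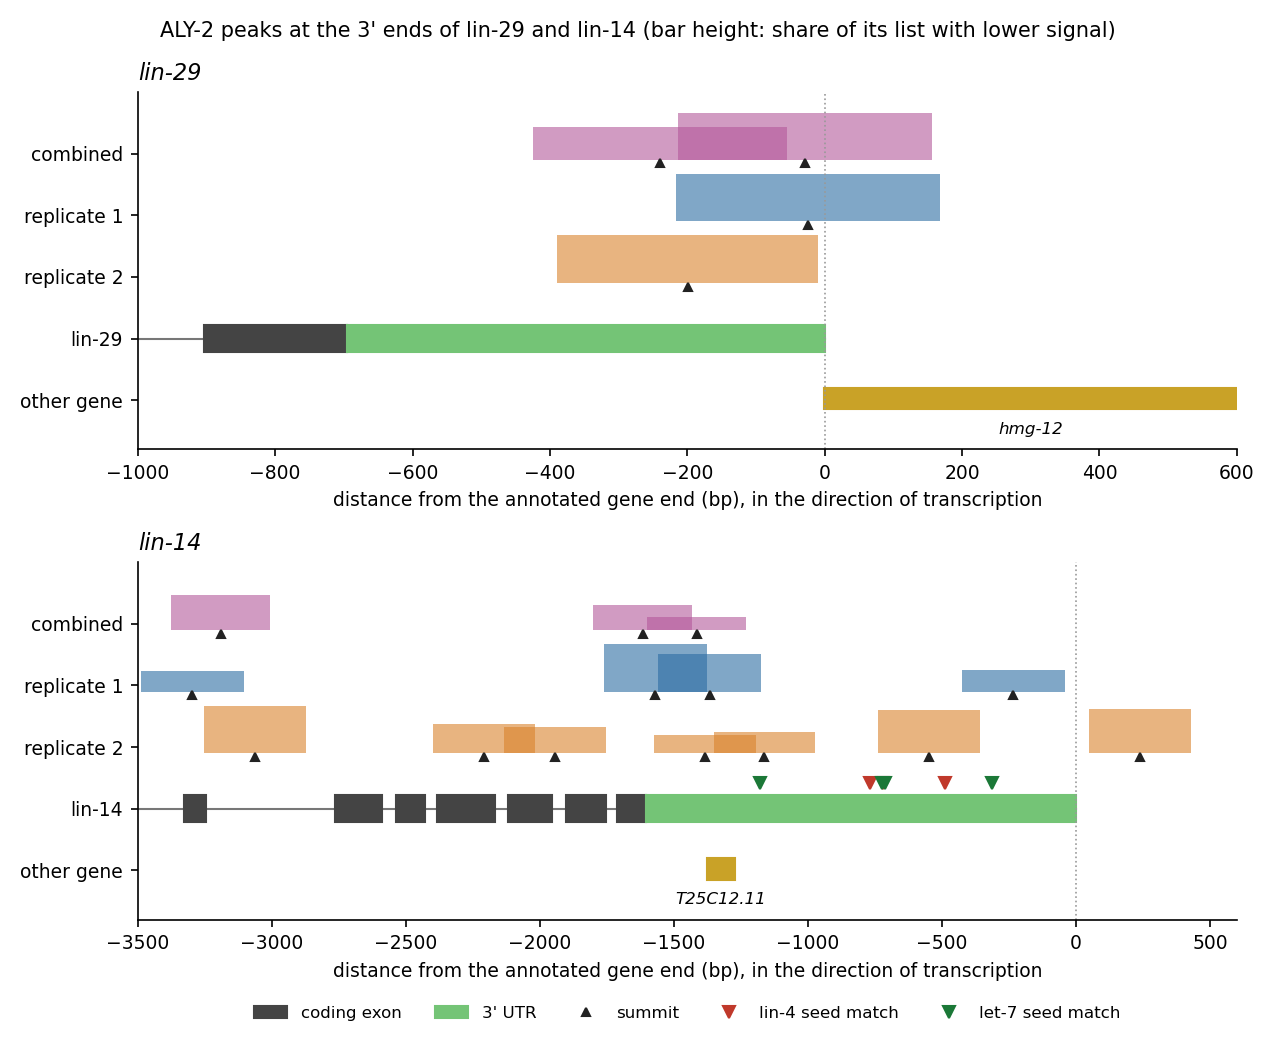
Peaks at the 3' ends of lin-29 and lin-14 by distance from the annotated gene end in bp; bars span each peak of the combined, replicate 1 and replicate 2 lists with height showing the share of the list with a lower signal, upward triangles mark summits and downward triangles seed matches to lin-4 and let-7, drawn over each other where they overlap; the lowest row holds hmg-12 and T25C12.11. At lin-29 the peaks of all 3 lists overlap at the end of the gene next to hmg-12. At lin-14 an overlapping pair of combined peaks lies more than 1000 bp before the end, over the last coding exon and the start of the 3' UTR. Another combined peak lies farther back, in an intron.

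Other genes of the pathway were read in the same windows from a list of 35: 5 microRNA genes, 9 microRNA cofactors, 8 timing regulators, 10 transcription factors and related proteins of the larval cycles and 3 late outputs. All 35 were matched. Peaks were found at 2, 18, 31 and 33 of them in the reproducible, combined, replicate 1 and replicate 2 lists. For the 30 that are protein-coding the counts were 2, 17, 27 and 29, or 6.67%, 56.7%, 90.0% and 96.7%, against the 1.27%, 16.1%, 55.6% and 69.0% of all protein-coding genes. These 30 genes had a median window of 7602.5 bp, against 3527 bp over all. Of the 19 with windows of 5 to 10 kb, 10 had a combined peak, against 22.5% of all genes of that length. Of the 5 with windows of 10 to 20 kb 4 had one, against 37.2%, and of the 2 over 20 kb 2 had one, against 60.7%. Up to 5 kb it was 1 of 4, against 12.1%.

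The microRNA cofactors and timing regulators carried most of these peaks. Of 9 cofactors 6 had a combined peak. Their windows fall in length classes up to 20 kb, where 12.1% to 37.2% of all genes had one. The highest was at alg-1, an Argonaute of the microRNA pathway, with a 3' UTR peak at chrX:13955238-13955607 that was also reproducible (signal 46.2, rank 36 in both lists). It ranked 86 in replicate 1 and 63 in replicate 2 by its strongest peak. The others were ain-1, a GW182 family partner of the Argonautes (31.7, rank 211), nhl-2, a TRIM-NHL cofactor (28.8, rank 324), xrn-2, an exoribonuclease that degrades released microRNAs (24.1, rank 662), puf-9 of the Pumilio family (20.1, rank 1464) and alg-2, a second Argonaute (16.7, rank 3244).

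Of 8 timing regulators 7 had a combined peak, but several are long. The windows of sea-2 and din-1 exceed 20 kb, where 60.7% of all genes had one. Those of dre-1 and kin-20 fall between 10 and 20 kb, where 37.2% did. The others fall between 5 and 10 kb, where 22.5% did. The highest was at din-1, the corepressor of DAF-12, with an intron peak at chrII:11617595-11617964 that was also reproducible (signal 35.8, rank 122). Its strongest replicate peaks ranked 13 and 72. The others were sea-2 (23.9, rank 688), lep-2, a Makorin (23.8, rank 707), mab-10, the LIN-29 cofactor (19.8, rank 1543), kin-20, a casein kinase that works with LIN-42 (19.7, rank 1576), dre-1, an F-box protein (18.2, rank 2206), and lin-66 (16.9, rank 3109). The 1 without a combined peak was daf-9, which encodes the enzyme that makes the DAF-12 hormone.

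In the remaining groups the counts were lower. The larval cycle genes have windows of 5 to 10 kb or 10 to 20 kb, where 22.5% and 37.2% of all genes had a combined peak. Among 10 genes of the larval cycles 4 had a combined peak: pan-1 (27.4, rank 399), the Myrf family gene myrf-1 (24.5, rank 614), blmp-1, the Blimp1 homolog (21.2, rank 1139), and myrf-2 (16.6, rank 3334). Among 5 microRNA genes only mir-241 had any, the stronger of a pair lying upstream of it at chrV:14366461-14366830 (signal 20.7, rank 1268). The microRNA windows run from 1575 bp at mir-84 to 3232 bp at let-7. Of protein-coding genes with windows up to 5 kb, 12.1% had a combined peak. No share was taken for windows of the microRNA size alone. Per length the microRNA genes, whose windows are short, held 2.08 combined peaks per 10 kb from 2 peaks, against 1.75 for the cofactors, 1.46 for the timing regulators and 0.597 for the larval cycle genes. In replicate 1 they held 5.21 per 10 kb and in replicate 2 10.4, the highest of the 5 groups in each list. A peak counts by 1 bp of overlap, which raises the density in short windows. Densities of groups with unlike window lengths are therefore not comparable. None of the 3 late outputs, genes read out at the end of the pathway, had a combined peak. In their length classes, up to 5 kb and 5 to 10 kb, 12.1% and 22.5% of all genes had one.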

How the data were processed

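The deposited values are peak lists for 2 biological replicates of 1 group. Per the labels and the accompanying file descriptions, the authors derived 4 lists per build with a control alignment: permissive lists for replicate 1, for replicate 2 and for both together, and the peaks past an optimal IDR threshold. The deposited signal column has no stated scale. A further deposited column gives each peak's q-value as −log10. Which peak caller and aligner were used, and at what IDR cut-off, is not given in the sources used here. The ce10 lists were not used, since no coordinate was converted, and signal tracks were not analysed here.

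The ce11 lists were set against Ensembl release 115 (WBcel235). The heterochronic genes and the pathway list were chosen with earlier results of these data known. Summits were classed in order as upstream, 5' UTR, coding exon, 3' UTR, intron and downstream over all transcripts of a gene, and a summit in the windows of 2 genes counts for each. Background shares come from the same rules over all protein-coding genes or all peaks. The text names the 8 genes, the genes that overlap their combined or strongest peaks, the pathway genes with a combined or reproducible peak and the 3 genes most like lin-29. The genes pnn-1, F11A1.11 and daf-9, and weaker replicate peaks given with their signals, were named after their values were seen. With no read depth, the 95% intervals reflect only how many peaks were counted. The assignment of summits to classes was tested on simulated data. The tools were Python 3.11.15, pandas 2.3.3, numpy 2.4.6, matplotlib 3.10.9 and scipy 1.17.1. The alternatives tried were other windows, thresholds, list lengths, overlap rules, ranking and GC spans.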

Additional observations from a re-analysis of the deposited data

How the results depend on the processing

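No paired analysis was possible because the design has a single group. Without read depth, its bearing on weak peaks could not be gauged, and with 1 line there is no spread between conditions. Of 78 alternative values for counts, densities and shares, 55 were counted as the same as those reported and 23 as moved. That rule was loose. Values counted as the same include 5 heterochronic genes in place of 7 in the strongest replicate 1 peaks. They also include 14 pathway genes in place of 18 with combined peaks at or above the median signal. Stricter rules keep fewer peaks, and no cause of a shift was tested. With windows of 2000 bp upstream and 1000 bp downstream, 5 heterochronic genes had a combined peak, lin-41 and daf-12 being added. Wider windows meet more peaks at any gene. For the other windows, thresholds and list lengths, no share or density over all protein-coding genes is given here. The counts and densities under those settings therefore have no background beside them. With a replicate left out, the replicate list in place of the combined list gave 7 to 8 genes. With peaks at or above the median signal, the genes and peaks in the reproducible list were 0 and 0, since the lin-29 peak ranks 99 of 193. The peaks at the genes were then 6 combined, 19 in replicate 1 and 39 in replicate 2, or 0.506, 1.60 and 3.29 per 10 kb, no combined summit was in a coding exon (0.0%) and 1 pathway gene kept a reproducible peak. With each replicate limited to its strongest 3341 peaks, 8 peaks (0.675 per 10 kb) remained at 5 genes in replicate 1. In replicate 2, 14 peaks (1.18 per 10 kb) remained at 5 genes. Sharing of replicate 1 peaks was 28.1% with overlap of at least 50% of both peaks, against 27.5% over all peaks, 12.5% with summits within 100 bp, against 19%, and 25% among the strongest peaks, against 18.6%. Sharing of replicate 2 peaks was 12.7% against 16.9% and 6.35% against 11.3% under the first 2 of these rules. So the share at the heterochronic genes stood above that of all peaks by the 1 bp rule and below it by the summit rule. Ranking by q moved 2 of 18 percentiles, those of lin-41 and lin-46 in replicate 1, to 53.1% and 44.6%.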
